A study of Mus musculus with 24 samples.

Results

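The genes described here are imprinted genes that act on growth: Mest, Nnat, Peg3, Igf2, H19, Dlk1, Cdkn1c, Grb10 and Plagl1. They were chosen by name, as every probe of the table whose gene symbol is on this list of 9. Probes were named for 8 of the 9 genes, and H19 was not analysed here. The 8 genes carried 21 probes among 45281 in the table, and they are 8 of the 19053 genes that the table names. Mest had 3 probes and Nnat 4, and all 7 are given below for WAT. In BAT, their array values are given for the brightest probe, the probe with the highest mean over all arrays. Each other gene is given by its brightest probe.

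The study asked how enriching a high fat diet in EPA/DHA (eicosapentaenoic and docosahexaenoic acid, the n-3 fatty acids of fish oil) bears on genes of the 2 kinds of adipose tissue. Illumina mouse arrays had read the RNA of 24 samples, 4 for each pairing of a tissue with a diet, all from male mice of the strain C57Bl/6J with no genetic change named. The tissues are the white (WAT) and the brown (BAT), and the diets are low fat, high fat made with corn oil, and high fat made with EPA/DHA. No age or diet duration is given in the labels used here. The mice of a diet had been chosen to stand for their group in body weight, plasma triglyceride and plasma cholesterol, so they are not a random draw from it. The labels do not say which WAT depot was taken, the extraction text speaks of skeletal muscle, and p-values measure only the spread between these arrays.

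An imprinted gene is read from only the copy inherited from the father or only the copy inherited from the mother. Paternally expressed genes such as Mest, Peg3, Igf2 and Dlk1 mostly act towards growth, and maternally expressed genes such as Cdkn1c, H19 and, in most tissues, Grb10 mostly restrain it. In white fat, Mest is known as a gene whose RNA varies widely between mice of 1 inbred strain and goes along with the gain of fat mass. Nnat encodes neuronatin, a small membrane proteolipid of the endoplasmic reticulum that is made in neural and endocrine cells and in adipocytes.

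Promoter windows are shown for Mest and Nnat, each with at least 1 probe that passed between diets in WAT, as given below. For Mest the brightest probe did not pass. A window is shown as well for Blcap, the gene within which Nnat lies in the RefSeq annotation. Each window runs 5′ to 3′ on the gene's strand, from 250 bases before a RefSeq transcript start to 50 bases after it, in the build GRCm38.p6. Capitals mark TGCCGC or its reverse complement GCGGCA, the hexamer bound by ZFP57, a zinc finger protein that keeps methylation at imprinting control regions. The Mest window lies at chr6:30737800-30738099 on the plus strand, the Nnat window at chr2:157559828-157560127 on the plus strand, and the Blcap window at chr2:157566312-157566611 on the minus strand.
Mest: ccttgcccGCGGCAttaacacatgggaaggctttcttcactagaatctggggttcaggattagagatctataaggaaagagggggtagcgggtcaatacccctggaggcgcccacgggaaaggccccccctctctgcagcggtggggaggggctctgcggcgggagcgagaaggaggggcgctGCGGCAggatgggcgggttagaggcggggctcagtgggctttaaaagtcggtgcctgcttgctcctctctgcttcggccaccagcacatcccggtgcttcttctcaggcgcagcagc
Nnat: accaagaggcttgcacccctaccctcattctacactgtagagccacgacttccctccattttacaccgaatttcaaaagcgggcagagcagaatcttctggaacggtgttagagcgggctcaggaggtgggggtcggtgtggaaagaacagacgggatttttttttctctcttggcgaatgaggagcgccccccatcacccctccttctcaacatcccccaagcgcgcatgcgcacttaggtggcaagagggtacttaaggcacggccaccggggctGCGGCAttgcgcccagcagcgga
Blcap: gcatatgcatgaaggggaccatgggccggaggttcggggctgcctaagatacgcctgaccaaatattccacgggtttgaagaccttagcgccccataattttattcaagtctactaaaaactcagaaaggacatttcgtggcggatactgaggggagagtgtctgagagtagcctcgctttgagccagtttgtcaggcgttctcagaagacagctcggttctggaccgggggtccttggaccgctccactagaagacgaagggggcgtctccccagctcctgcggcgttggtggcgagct
The Mest window shown held 2 such hexamers, the Nnat window 1 and the Blcap window 0, and each of the 3 held 17 CpG dinucleotides against a median of 7 over all 32851 windows. Over both strands, the hexamer stood in 6 of 13 windows of the members and in 11.6% of all windows. The hexamer itself holds a CpG, and these shares were not matched for CpG content, so no enrichment is read from them. The 13 windows belong to 7 members. Of the 3 Mest windows, 2 start 3 bases apart and share their hexamers, while the window at chr6:30733256-30733555 held 0 hexamers and 8 CpG dinucleotides. A match in these letters is a description of the window and not a bound site.

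Values are log2 intensities, normalised by the submitters so that the arrays have nearly the same distribution, with a floor near 7, a lowest value of 6.95 and a maximum of 14.79. Differences are in log2 units with their standard error, p-values come from limma and were adjusted over all probes kept by a filter on dim probes, and a difference passed at an adjusted p under 0.05. Of the 21 probes, 15 passed the filter in WAT and 15 in BAT, and they covered 7 of the 8 genes in each tissue. A level of 1 probe cannot be set against that of another probe, so the values below compare samples within a probe. The samples are whole tissue, and fewer cells of a type and less RNA per cell cannot be told apart.

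The tissue labels were checked against marker genes, each list given as the range of its mean level over arrays. Adipocyte markers (6 genes) lay between 10.59 and 11.23 on all arrays, and the brown fat marker Ucp1 lay at 13.55 to 14.41 in BAT. In WAT it was raised in corn oil replicate 4 (9.38) and EPA/DHA replicate 2 (10.63) against 7.08 to 8.02 on the other WAT arrays. Skeletal muscle markers ran from 8.02 to 12.92 in BAT and from 7.44 to 7.85 in WAT, and liver markers (6 genes) from 8.52 to 11.24 in WAT against at most 7.96 in BAT. The liver list was high through Apoa2, Apoc3, Serpina1c and Ttr, while Alb and Fgb were at the floor in WAT, with group means of 7.05 to 7.12, and were not tested. Mean correlations of an array with the others of its tissue ran from 0.969 to 0.992, and no 2 arrays were duplicates (highest correlation 0.9958).

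Mest encodes a protein of the alpha/beta hydrolase fold. In WAT, its RNA was highest on the corn oil diet at all 3 probes. At the brightest probe, ILMN_2846904, the 4 low fat arrays had 9.27, 10.22, 10.34 and 8.42. The corn oil arrays had 11.17, 10.19, 11.44 and 11.22, and the EPA/DHA arrays had 8.10, 9.95, 9.65 and 9.18. Of the 4 corn oil arrays, 3 lay above every other WAT array, while replicate 2 lay among the upper low fat values. The corn oil minus low fat difference was 1.44 ± 0.50 and did not pass (adjusted p = 0.166). All 4 EPA/DHA arrays lay below all 4 corn oil arrays, yet that difference of -1.78 ± 0.50 did not pass either (adjusted p = 0.105).

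The other Mest probes had less spread. Probe ILMN_2642417 had 8.93, 9.86, 9.49 and 7.96 on the low fat diet, 10.77, 10.04, 10.98 and 10.90 on corn oil, and 7.86, 9.06, 9.12 and 8.76 on EPA/DHA. Probe ILMN_2642418 had 7.94, 8.67, 8.57 and 7.42 on the low fat diet, 9.41, 9.17, 9.37 and 9.36 on corn oil, and 7.41, 8.46, 8.14 and 8.0 on EPA/DHA. At both probes every corn oil array lay above every array of the other two diets. Of all probes tested in WAT, 5.07% had every corn oil array above every low fat array, and 3.91% had every EPA/DHA array below every corn oil array.

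Of the 3 Mest probes, 1 rose from low fat to corn oil and 2 fell from corn oil to EPA/DHA. Over all probes, 1.49% rose in the first comparison and 0.828% fell in the second. The rise was 1.18 ± 0.28 at ILMN_2642418 (adjusted p = 0.0491), against 1.61 ± 0.41 at ILMN_2642417, which did not pass (adjusted p = 0.0662). The falls were -1.97 ± 0.41 at ILMN_2642417 (adjusted p = 0.0409) and -1.33 ± 0.28 at ILMN_2642418 (adjusted p = 0.0408). These calls stood close to the threshold. Leaving out 1 array at a time, the rise was kept in 1 of 8 fits, the fall in 0 of 8 at ILMN_2642417 and in 1 of 8 at ILMN_2642418. The differences themselves then ran from 0.93 to 1.35, from -2.18 to -1.69 and from -1.48 to -1.13, and the adjusted p reached at most 0.117. The rise was kept only without low fat replicate 2 (adjusted p = 0.0406), and the fall at ILMN_2642418 only without EPA/DHA replicate 2 (adjusted p = 0.0361). Without the 2 WAT arrays of raised Ucp1, a choice made after seeing the data, no Mest call was kept (adjusted p = 0.106 for the rise, 0.111 and 0.0768 for the falls).

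EPA/DHA and low fat WAT overlapped at all 3 Mest probes. The differences were -0.34 ± 0.50, -0.36 ± 0.41 and -0.15 ± 0.28, with 95% intervals of -1.44 to 0.76, -1.26 to 0.55 and -0.76 to 0.46 (adjusted p = 0.924, 0.898 and 0.944). Only 0.0479% of all probes passed in that comparison.

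Mest also varied widely among mice of the same diet. The SD of its brightest probe within diets was 0.77 in WAT, and ranked 65 from the highest among the 13349 genes tested there, whose median was 0.0770. By diet the SD was 0.90 on low fat, 0.55 on corn oil and 0.81 on EPA/DHA. The low value of low fat replicate 4 and that of EPA/DHA replicate 1 were seen at all 3 probes, whose correlations over the 12 WAT arrays ran from 0.967 to 0.979.

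**Figure D1:**
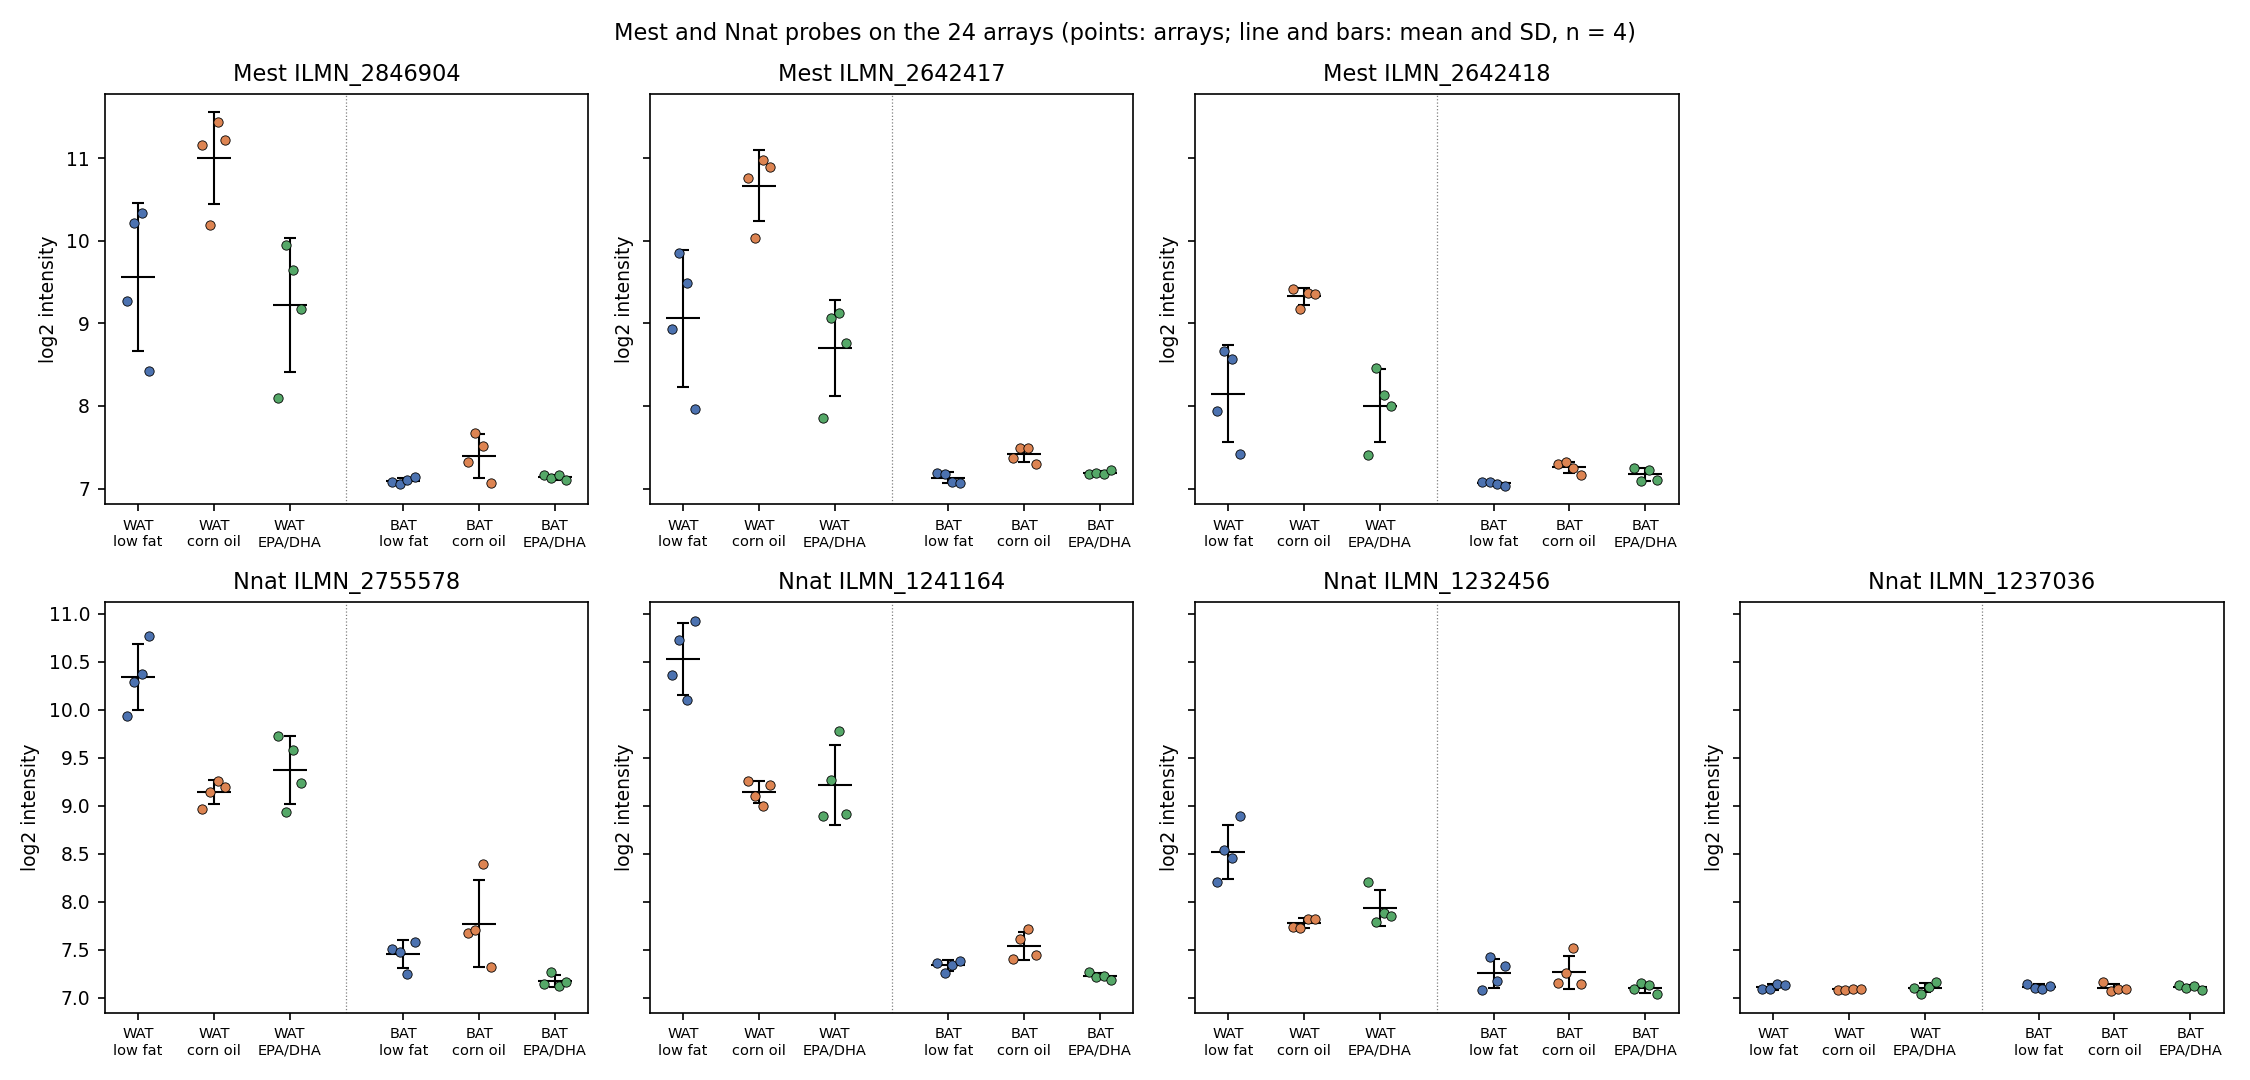
Log2 intensity (vertical axis) of the 3 Mest probes (upper row) and the 4 Nnat probes (lower row) by tissue and diet, with 1 point per array and the mean and SD of 4 arrays. In WAT the corn oil points of Mest are the highest at ILMN_2642417 and ILMN_2642418, the low fat points of Nnat are the highest at its brighter probes, BAT points of Mest lie near the floor of about 7, and the Nnat probe ILMN_1237036 lies there in every group.

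Nnat went the other way from Mest between the low fat and the corn oil diet. At its brightest probe, ILMN_2755578, the low fat WAT arrays had 9.93, 10.28, 10.37 and 10.76. The corn oil arrays had 8.97, 9.15, 9.26 and 9.19, and the EPA/DHA arrays had 9.72, 8.93, 9.58 and 9.24. Every low fat array lay above every array of both high fat diets, and the high fat diets overlapped. Nnat fell from low fat to corn oil by 1.20 ± 0.19 (adjusted p = 0.0122), a fold of 2.29 if the scale is a plain log2.

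The fall was seen at the 3 Nnat probes that stood above the floor. Probe ILMN_1241164 had 10.36, 10.73, 10.10 and 10.93 on low fat, 9.25, 9.10, 8.99 and 9.21 on corn oil, and 8.90, 9.26, 9.78 and 8.91 on EPA/DHA. Probe ILMN_1232456 had 8.20, 8.53, 8.46 and 8.89 on low fat, 7.74, 7.73, 7.82 and 7.82 on corn oil, and 8.21, 7.79, 7.89 and 7.85 on EPA/DHA. In both, low fat arrays lay above all corn oil arrays, as 5.32% of all probes did. The differences were -1.39 ± 0.21 (adjusted p = 0.0114) and -0.74 ± 0.13 (adjusted p = 0.0168), where 1.44% of all probes fell. All 3 probes kept their call without any 1 of the 8 arrays, and without the 2 arrays of raised Ucp1. The fourth probe, ILMN_1237036, lay between 7.04 and 7.17 on all 24 arrays, below the filter in WAT, and was not tested there. Its correlation with the other 3 probes over the WAT arrays was 0.164 to 0.478, against 0.837 to 0.973 among those 3.

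On EPA/DHA, Nnat levels in WAT also lay below those on the low fat diet, but no probe passed. The EPA/DHA minus low fat differences were -0.97 ± 0.19, -1.31 ± 0.21 and -0.58 ± 0.13 (adjusted p = 0.225, 0.122 and 0.240), with no overlap between groups at the first 2 probes. Of all probes tested, 2.1% had every EPA/DHA array below every low fat array, and only 4 of 13349 genes (0.03%) passed in that comparison. When a gene stood as the mean of its kept probes, Nnat passed there (-0.95, adjusted p = 0.0479). Between EPA/DHA and corn oil the differences were 0.23 ± 0.19, 0.07 ± 0.21 and 0.16 ± 0.13, with 95% intervals of -0.19 to 0.65, -0.40 to 0.54 and -0.13 to 0.44. Both comparisons with the low fat diet share the same 4 low fat arrays.

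In WAT, then, Mest had its highest mean on corn oil and Nnat its highest on low fat. Taking the brightest probe of each of the 7 genes tested, 1 gene, Nnat, passed from low fat to corn oil, against 3.87% of all genes. From corn oil to EPA/DHA 0 of the 7 passed in limma's test, against 2.34% of all genes, with 1 of 7 (Mest) and 17.6% of all genes at an unadjusted p under 0.05. From low fat to EPA/DHA 0 of the 7 passed, with 2 of 7 (Nnat and Igf2) and 9.06% of all genes at an unadjusted p under 0.05. The median difference of the 7 genes was -0.18, 0.01 and -0.22 in these comparisons, beside 0.00 over all genes tested in each.

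**Figure D2:**
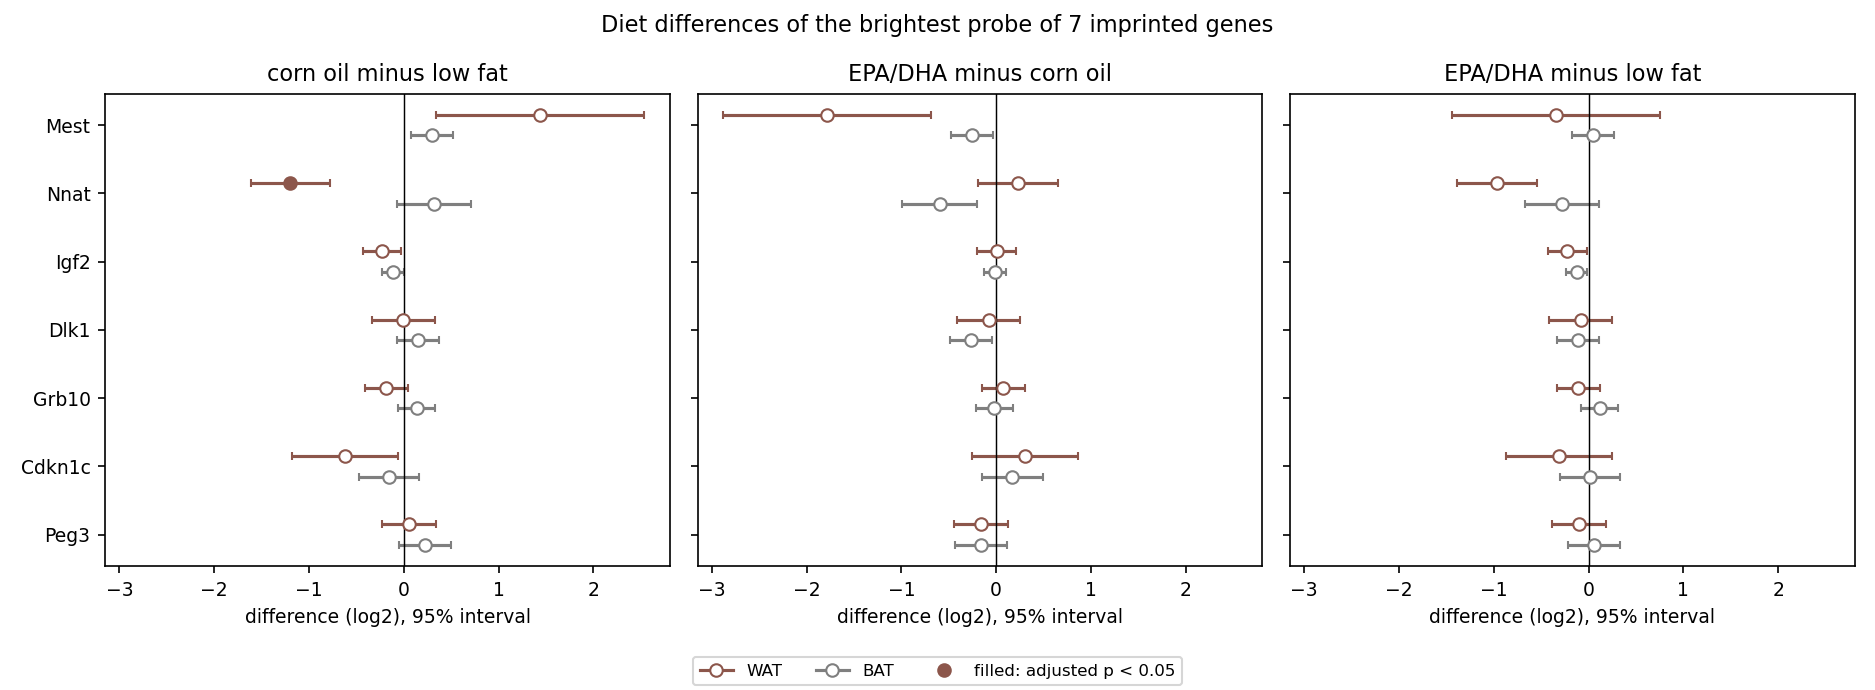
Differences between diets (horizontal axis, log2, with 95% intervals) of the brightest probe of 7 imprinted genes in WAT and BAT, 1 panel per comparison, filled points being those at an adjusted p under 0.05. The WAT interval of Mest is the widest in each panel, and the filled point is Nnat in WAT between corn oil and low fat at -1.20.

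Blcap, named for an association with bladder cancer, holds Nnat within its span, and it was taken with the other imprinted genes as the neighbour of Nnat. Its WAT arrays had 10.90, 10.77, 10.62 and 10.95 on low fat, 10.13, 10.00, 10.17 and 10.45 on corn oil, and 10.35, 10.52, 10.51 and 10.33 on EPA/DHA. Every low fat array lay above every high fat array. Of all genes, 5.86% had low fat above corn oil in this way and 2.46% had low fat above EPA/DHA. Blcap fell from low fat to corn oil by 0.62 ± 0.10 (adjusted p = 0.0122) and kept its call without any 1 of the 8 arrays. Nnat and Blcap had a correlation of 0.78 over the 12 WAT arrays and of 0.00 once the mean of each diet was taken away, so their shared course was that of the diet groups. Probe sequences were not aligned, and whether a probe of 1 of these genes also reads RNA of the other was not tested.

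Markers of mesothelial cells, the lining of the peritoneum, had a mean level of 7.73 to 8.05 on low fat, 7.39 to 7.66 on corn oil and 7.45 to 7.79 on EPA/DHA in WAT, over 5 of 6 genes with a named probe. Low fat arrays lay above corn oil arrays here too, and of the 5 genes 0 passed from low fat to corn oil in limma's test, with 3 of 5 and 19.7% of all genes at an unadjusted p under 0.05. The defining marker Upk3b lay at 9.08 to 10.07, 8.10 to 8.92 and 8.26 to 9.22, while Lrrn4 and Krt19 lay at 7.11 to 7.36 in WAT. The part of these markers in the fall of Nnat was not tested.

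Macrophage markers (6 genes) had a mean level of 8.72 to 9.04, 8.99 to 9.28 and 8.58 to 9.16 on the 3 diets in WAT, and adipocyte markers of 11.08 to 11.23, 10.88 to 11.08 and 11.03 to 11.23. Markers of adipocyte progenitors (5 of 6 genes) were at 8.59 to 8.87, 8.42 to 8.70 and 8.38 to 8.91. These ranges overlapped between low fat and corn oil, and no gene of these lists passed there in limma's test. Adgre1 (0.60), Mrc1 (0.49) and Mpeg1 (0.78) rose and the progenitor gene Dpp4 (-0.35) fell at an unadjusted p under 0.05, beside 19.7% of all genes. Mpeg1 stood apart, as 6.54% of all genes did in that direction. The progenitor gene Pdgfra (-0.27) stood apart with corn oil below low fat, as 5.86% of all genes did. Pdgfra and the macrophage genes Csf1r (0.20), Cd14 (-0.29) and Itgam (-0.03) did not reach an unadjusted p under 0.05. The part of these cell types in the diet differences of Mest and Nnat was not tested. The mean of the neural markers (6 genes) lay at 7.09 to 7.15 on all 24 arrays. Of these, Stmn2 lay at 7.22 to 7.34 in WAT and 7.13 to 7.35 in BAT, and was higher in WAT on low fat (0.12, adjusted p = 0.0215), while the other 5 genes had group means of 7.05 to 7.13, at the floor.

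No relation of Mest and Nnat from mouse to mouse passed. After removing diet means, their correlation over the 12 WAT arrays was -0.48 (rho = -0.33, exact permutation p = 0.222 for r and 0.390 for rho, two-sided, adjusted p = 0.773 and 0.794 over 12 pairs). Without the 2 arrays farthest from the median of Mest it was 0.25. The family of 12 pairs set Mest against the other 6 tested members in WAT and in BAT, and no pair passed, with adjusted p from 0.773 to 0.855 for r. The smallest p was that of Mest and Cdkn1c in BAT (r = 0.59, rho = 0.57, exact permutation p = 0.0801 and 0.138, and r = 0.24 without the 2 farthest arrays).

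The genes most like Mest in WAT were taken by Pearson correlation with its brightest probe over the 12 arrays, among 13348 other genes. They were Tnfrsf21, a death receptor of the tumour necrosis factor receptor family, at 0.967, the synaptic vesicle gene Syp at 0.951, Rap1gap2 at 0.947, Ppic, a cyclophilin, at 0.939 and Mfsd7a at 0.939. Within diets these correlations were 0.851 to 0.931, over the same arrays by which the genes were picked. The genes most like Nnat in WAT were Inpp5k (0.951), Sema5a (0.913), Ndrg1 (0.913), Mgst3 (0.908) and Smoc1 (0.904). Within diets these were between 0.60 for Sema5a and 0.910 for Mgst3. The 12 arrays share 3 diets, and these correlations are descriptions of a choice made by size.

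Genes other than Mest that are tied to fat mass were taken as a list of 5: Lep, Sfrp5, Bmp3, Npr3 and Cav1. In WAT, Sfrp5, a secreted Wnt antagonist, had 8.0, 8.37, 8.15 and 7.50 on low fat, 9.05, 8.51, 8.97 and 8.72 on corn oil, and 7.58, 7.63, 7.84 and 7.71 on EPA/DHA. Its corn oil arrays lay above all others, as those of the dimmer Mest probes did. Of all genes tested in WAT, 6.54% had every corn oil array above every low fat array. A share of 4.95% had every EPA/DHA array below every corn oil array. Within diets, the correlation with Mest in WAT was 0.77 for Sfrp5, 0.74 for Lep, 0.79 for the natriuretic peptide clearance receptor Npr3, 0.68 for Bmp3 and -0.02 for the caveolin gene Cav1, each over 12 arrays. With Nnat these were -0.35, -0.06, -0.38, -0.08 and 0.03. In BAT they were 0.35, 0.40, 0.04, 0.50 and 0.54 with Mest and 0.65, 0.61, 0.25, 0.73 and 0.17 with Nnat in the same order of genes. For Nnat the WAT values of Sfrp5 and Npr3 were thus below 0 and those of Lep, Bmp3 and Cav1 close to 0, while all 5 were above 0 in BAT. In BAT the group means were 7.13 to 7.19 for Sfrp5 and 7.13 to 7.32 for Bmp3, near the floor. The BAT SD by diet was largest on corn oil, at 0.26 for Mest and 0.45 for Nnat. It was 0.04 and 0.14 on low fat and 0.03 and 0.07 on EPA/DHA. The BAT correlations of both genes thus lean on the corn oil arrays. The difference between the tissues in these correlations was not tested. Of the 5 genes, Sfrp5 passed from low fat to corn oil (0.81 ± 0.17, adjusted p = 0.0344, kept in 2 of 8 fits with 1 array left out) and from corn oil to EPA/DHA (-1.12 ± 0.17, adjusted p = 0.0123), against 3.87% and 2.34% of all genes. The other 4 passed in no diet comparison of either tissue.

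In BAT, where 0 of all genes passed in limma's test between corn oil and either other diet, groups of these genes still stood apart. Lep, the gene of the satiety hormone leptin, had 9.76, 8.36, 7.79 and 9.05 on low fat, 11.56, 11.11, 11.83 and 10.19 on corn oil, and 9.33, 8.63, 9.55 and 9.25 on EPA/DHA. Every corn oil array lay above every array of the other two diets. The differences were 2.43 ± 0.44 between corn oil and low fat and -1.98 ± 0.44 between EPA/DHA and corn oil (adjusted p = 0.185 and 0.612). Npr3 lay at 7.52 to 8.80, 9.13 to 9.72 and 7.93 to 8.90 on the 3 diets, with differences of 1.18 ± 0.30 and -1.24 ± 0.30 (adjusted p = 0.325 and 0.750). Its corn oil arrays stood clear of the other diets too. Bmp3, near the floor, had corn oil arrays above those on low fat (0.19 ± 0.05, adjusted p = 0.367) and overlapping those on EPA/DHA. Sfrp5 and Cav1 overlapped in both comparisons. Of all genes tested in BAT, 2.26% had every corn oil array above every low fat array and 1.54% had every EPA/DHA array below every corn oil array. This comparison of the 5 genes with Mest and Nnat was added after their values had been seen and carries no test.

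**Figure D3:**
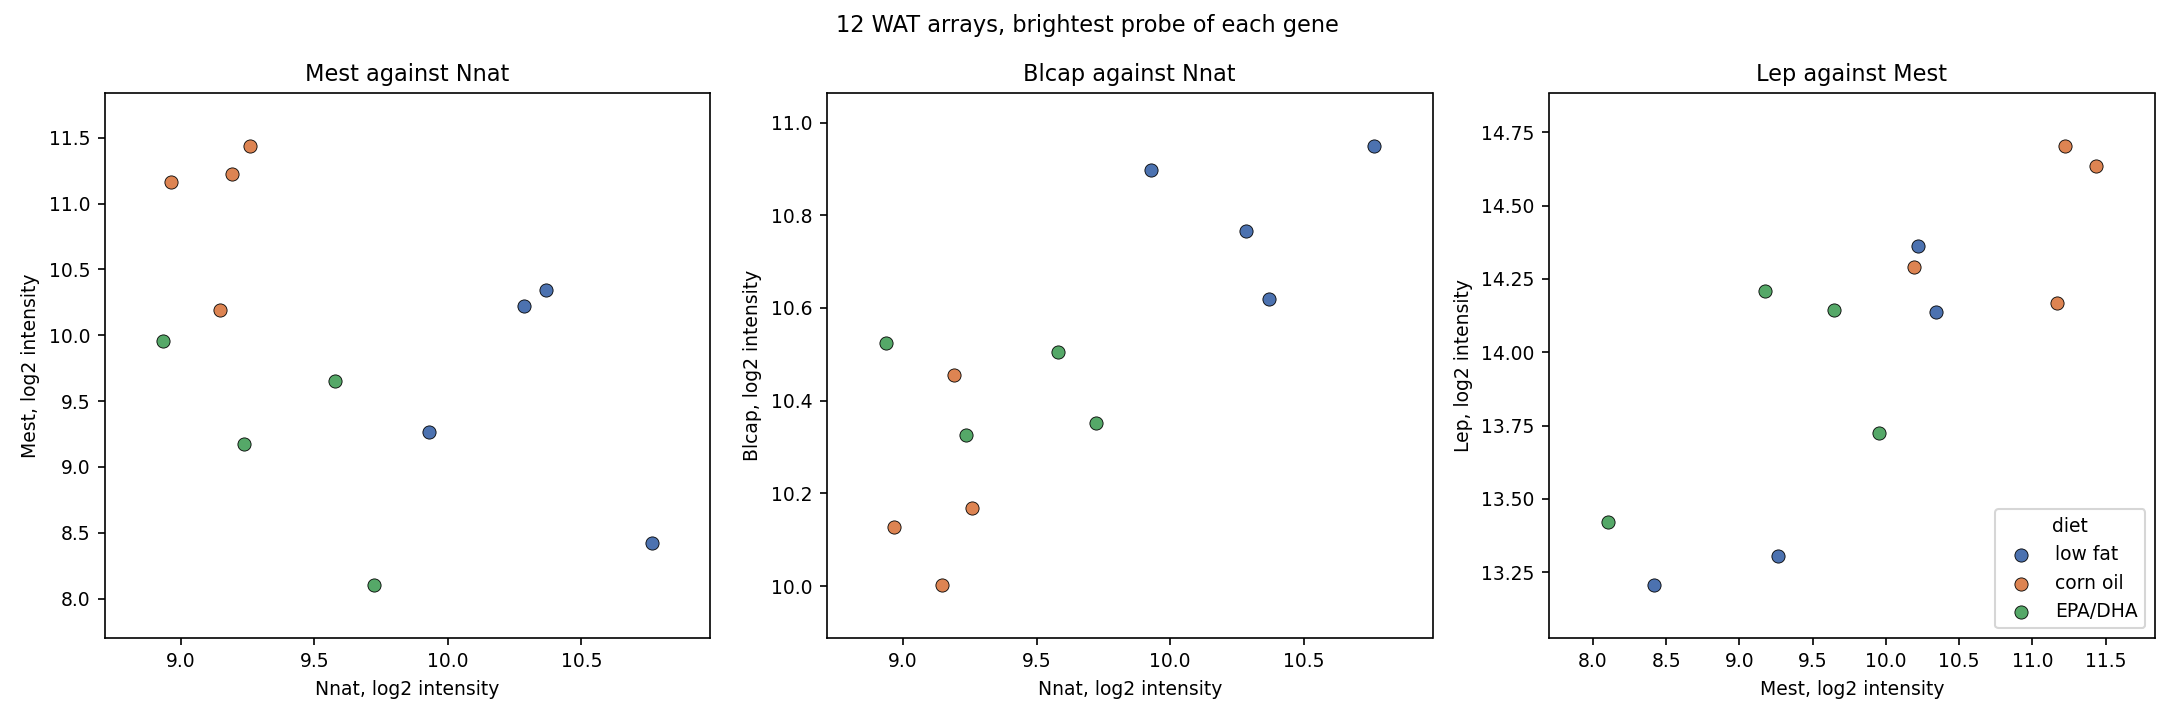
Log2 intensities of the brightest probes on the 12 WAT arrays, with 1 point per array coloured by diet: Mest against Nnat, Blcap against Nnat, and Lep against Mest. The low fat points stand to the right in Nnat and at the top in Blcap without an order among themselves, and Lep goes with Mest across all 12 arrays at a correlation of 0.82.

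Among the ligands, Igf2, an insulin-like growth factor, had 9.26, 9.28, 9.13 and 9.33 in low fat WAT. It had 9.06, 8.75, 8.99 and 9.29 on corn oil and 8.96, 9.09, 9.01 and 9.06 on EPA/DHA. The low fat arrays lay above the EPA/DHA arrays, as in 2.46% of all genes, and overlapped those on corn oil. The differences from low fat were -0.23 ± 0.09 on corn oil and -0.22 ± 0.09 on EPA/DHA and did not pass (adjusted p = 0.242 and 0.602).

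Dlk1, a transmembrane relative of the Notch ligands that holds back the maturation of preadipocytes, lay at 7.75 to 8.11 on low fat, 7.78 to 7.96 on corn oil and 7.50 to 8.26 on EPA/DHA in WAT. All groups overlapped, and the difference of corn oil from low fat was 0.00 ± 0.15. Its other probe stayed between 7.10 and 7.39 on all 24 arrays.

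Grb10, an adaptor that binds the insulin and insulin-like growth factor receptors and dampens their signal, lay at 9.40 to 9.89 on low fat, 9.48 to 9.54 on corn oil and 9.35 to 9.74 on EPA/DHA in WAT. These groups overlapped as well, and the corn oil minus low fat difference of -0.18 ± 0.10 did not pass (adjusted p = 0.436). Its other 2 probes lay between 7.06 and 7.70.

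Cdkn1c, an inhibitor of cyclin-dependent kinases, had an SD within diets of 0.39 in WAT, next after Mest among the tested members and above the 0.29 of Nnat. By single diets it came next after Mest on low fat, while Igf2 on corn oil and Nnat and Dlk1 on EPA/DHA had a larger SD than Cdkn1c. Its WAT arrays had 10.24, 10.02, 9.85 and 11.13 on low fat, 9.43, 9.61, 9.82 and 9.91 on corn oil, and 10.23, 10.28, 9.74 and 9.74 on EPA/DHA. Low fat replicate 4, which had the lowest Mest and the highest Nnat of the low fat arrays, stood above all others. The corn oil minus low fat difference was -0.62 ± 0.25 (adjusted p = 0.251), and the groups overlapped.

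Of the transcription factor genes, only Peg3 was tested, and it did not pass between diets. In WAT, Peg3, a zinc finger protein, lay at 7.90 to 8.58 on low fat, 8.17 to 8.46 on corn oil and 7.97 to 8.31 on EPA/DHA, with a corn oil minus low fat difference of 0.05 ± 0.13 (adjusted p = 0.900) and a 95% interval of -0.23 to 0.34. Its other 3 probes lay between 7.01 and 7.42. Plagl1, a zinc finger protein that can halt the cell cycle, lay between 7.02 and 7.14 on all arrays at all 3 probes, below the filter in both tissues, and was not tested.

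**Figure D4:**
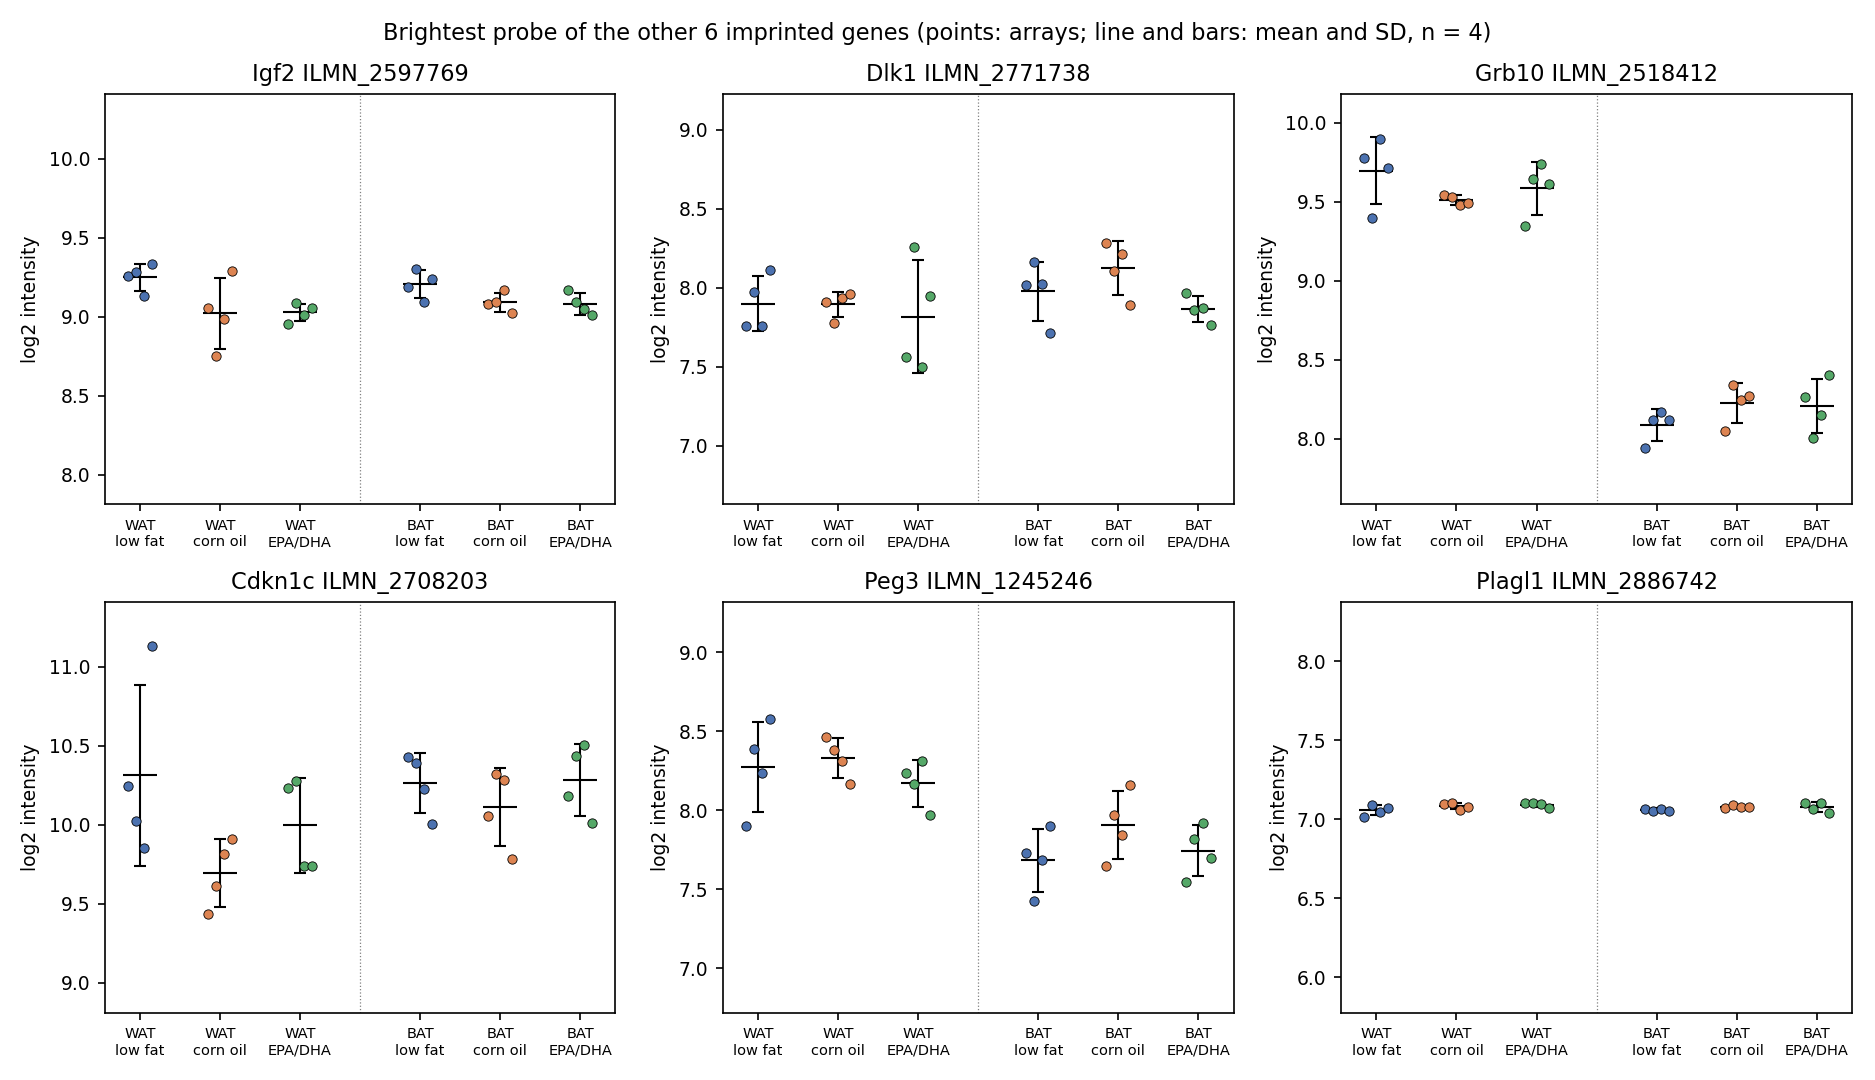
Log2 intensity (vertical axis, spanning at least 2.6 units in each panel) of the brightest probe of Igf2, Dlk1, Grb10, Cdkn1c, Peg3 and Plagl1 by tissue and diet, with 1 point per array and the mean and SD of 4 arrays. Grb10 and Peg3 stand higher in WAT, Igf2, Dlk1 and Cdkn1c lie at similar levels in both tissues, and Plagl1 lies at the floor.

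Comparing tissues, Mest, Nnat, Grb10 and Peg3 were higher in WAT than in BAT on every diet, 4 of the 7 genes tested. Among all genes, 23.3% were higher in WAT on low fat, 22.8% on corn oil and 20.1% on EPA/DHA. At the brightest probe of Mest the BAT arrays had 7.08, 7.05, 7.11 and 7.14 on low fat, 7.32, 7.67, 7.52 and 7.07 on corn oil, and 7.16, 7.12, 7.17 and 7.11 on EPA/DHA. Those of Nnat had 7.51, 7.47, 7.25 and 7.58 on low fat, 7.67, 7.70, 8.40 and 7.32 on corn oil, and 7.14, 7.27, 7.12 and 7.16 on EPA/DHA. No BAT array of either gene reached the lowest WAT array of the same diet. BAT levels of Mest on low fat and on EPA/DHA and of Nnat on EPA/DHA lay near the floor, where a difference can be understated. Those of Nnat on low fat (7.25 to 7.58) stood little above it, while those on corn oil reached 8.40. For Mest the WAT minus BAT differences were 2.47 ± 0.37 on low fat, 3.61 ± 0.37 on corn oil and 2.08 ± 0.37 on EPA/DHA (adjusted p = 1.8e-05, 1.2e-07 and 1.6e-04). For Nnat they were 2.88 ± 0.19, 1.37 ± 0.19 and 2.19 ± 0.19 in the same order (adjusted p = 1.9e-10, 7.9e-06 and 1.5e-08). The mean of the progenitor markers was higher on all WAT arrays than in BAT, where it lay at 7.57 to 7.98. Of its 5 genes, 4, 5 and 4 were higher in WAT on low fat, corn oil and EPA/DHA, and Zfp423, the one that did not pass on low fat and on EPA/DHA, overlapped between tissues on every diet. Macrophage markers had a mean of 8.58 to 9.28 in WAT and 7.49 to 7.88 in BAT, with 6, 5 and 5 of 6 genes higher in WAT. Mesothelial markers had 7.39 to 8.05 in WAT and 7.06 to 7.13 in BAT, with 5, 4 and 5 of 5 genes higher. Endothelial markers had 8.49 to 8.65 and 8.16 to 8.38, with 3 of 6 genes higher on each diet and 1 lower on corn oil. Skeletal muscle markers went the other way, at 7.44 to 7.85 in WAT and 8.02 to 12.92 in BAT, and on low fat all but Acta1 passed as lower in WAT. Of the adipocyte markers on low fat, Adipoq, Lipe and Cidec were higher and Plin1 lower in WAT, while Pparg and Fabp4 did not pass. The part of these cell types in the tissue differences of the members was not tested.

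The order of group means for Mest was WAT on corn oil (11.00), on low fat (9.56) and on EPA/DHA (9.22), then BAT on corn oil (7.40), EPA/DHA (7.14) and low fat (7.09). Neighbours in this order overlapped, except that EPA/DHA WAT stood clear of corn oil BAT. For Nnat the order was WAT on low fat (10.34), EPA/DHA (9.37) and corn oil (9.14), then BAT on corn oil (7.77), low fat (7.45) and EPA/DHA (7.17). There, low fat WAT stood clear of the next group and WAT stood clear of BAT, while the other neighbours overlapped.

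Grb10 had BAT levels of 7.94 to 8.17 on low fat, 8.05 to 8.34 on corn oil and 8.01 to 8.41 on EPA/DHA, and its WAT minus BAT differences were 1.61 ± 0.10, 1.29 ± 0.10 and 1.38 ± 0.10 (adjusted p = 6.2e-11, 1.8e-09 and 9.3e-10). Peg3 had BAT levels of 7.42 to 7.90, 7.65 to 8.16 and 7.55 to 7.92, with smaller differences of 0.59 ± 0.13, 0.43 ± 0.13 and 0.43 ± 0.13 (adjusted p = 0.00115, 0.0158 and 0.0172). WAT arrays of Peg3 lay above all BAT arrays on low fat, on corn oil and on EPA/DHA, as 21.8%, 22.9% and 21% of all genes did, although the closest arrays on low fat were equal to 2 decimals. Peg3 lost its call on corn oil without replicate 1 of WAT (0.38, adjusted p = 0.0512) or of BAT (0.34, adjusted p = 0.0669). On EPA/DHA it lost it without WAT replicate 3 (0.38, adjusted p = 0.0569) or BAT replicate 1 (0.36, adjusted p = 0.0646).

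Igf2, Dlk1 and Cdkn1c did not pass between tissues on any diet. Igf2 lay at 9.10 to 9.30, 9.02 to 9.17 and 9.01 to 9.17 in BAT on low fat, corn oil and EPA/DHA, close to its WAT range of 8.75 to 9.33. Its WAT minus BAT difference on low fat was 0.04 ± 0.08, with a 95% interval of -0.12 to 0.20. Dlk1 lay at 7.71 to 8.28 and Cdkn1c at 9.78 to 10.50 over all BAT arrays.

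Within BAT no member passed between any 2 diets. Of all 13400 genes, 0 passed in limma's test between corn oil and low fat and between EPA/DHA and corn oil, and 1 passed between EPA/DHA and low fat (0.00746%). At an unadjusted p under 0.05 there were 1220, 668 and 639 genes, and 2, 3 and 1 of the 7 members. Mest differed by 0.30 ± 0.10, 0.28 ± 0.05 and 0.19 ± 0.05 between corn oil and low fat at its 3 probes (adjusted p = 0.456, 0.182 and 0.291), with groups apart at the latter 2. Of all probes tested in BAT, 1.88% had every corn oil array above every low fat array. None of these Mest values was above 7.67. Nnat on EPA/DHA lay below corn oil on all arrays at its brightest probe, with a difference of -0.60 ± 0.18 (adjusted p = 0.999), and 1.55% of all probes had groups apart in that direction.

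The diet difference of Nnat differed between tissues. The WAT minus BAT difference of its corn oil minus low fat change was -1.52 ± 0.27, -1.59 ± 0.23 and -0.76 ± 0.16 at the 3 probes above the floor (adjusted p = 0.0141, 0.00191 and 0.0417). Of all probes 0.17% were lower in this term, and of all genes 0.652% passed. At the brightest probe of Nnat, the BAT mean was higher on corn oil than on low fat, a difference that did not pass. The BAT changes at its other probes are not given here. The first 2 probes kept their call in 16 of 16 fits with 1 array left out, and the third in 4 of 16. With the replicate number taken as a block, the first probe lost its call. Blcap passed too, at -0.85 ± 0.17 (adjusted p = 0.0322), and kept its call in 6 of 16 such fits. For Mest the same term was 1.14 ± 0.53, 1.32 ± 0.43 and 0.98 ± 0.29 and did not pass (adjusted p = 0.428, 0.211 and 0.155). Its EPA/DHA minus corn oil term was -1.53 ± 0.53, -1.75 ± 0.43 and -1.24 ± 0.29 (adjusted p = 0.432, 0.131 and 0.111), where 0.252% of all genes passed. A difference in diet response between the tissues was thus not shown for Mest. BAT levels of Mest lay near the floor, where a fall can be read only in part. Those of Nnat on low fat stood little above it, so a fall of Nnat in BAT was limited in the same way.

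In BAT the genes most like Mest were Tph2 (0.967), 1700019D03Rik, Ntng2, Sh3tc2 and Cnrip1 (0.876), and those most like Nnat were Gsn (0.935), Hmga2-ps1, Cma1, Ppm1h and Slc6a13 (0.864), over 12 arrays. Of these 10, Tph2, 1700019D03Rik, Cma1, Hmga2-ps1 and Ntng2 had mean levels of 7.11, 7.12, 7.15, 7.21 and 7.23, near the floor as Mest itself was.

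Other imprinted genes were taken as a list of 56, of which 52 had a named probe and 39 were tested in WAT. From low fat to corn oil 0 of the 39 rose and 3 fell, among 2.05% and 1.82% of all genes, and the median difference of the list was equal to 2 decimals to that of all genes. Those that fell were Blcap, Kcnq1ot1 and Mkrn3. Kcnq1ot1, the antisense RNA that silences genes around Cdkn1c, fell by 0.23 ± 0.05 (adjusted p = 0.0331) from 7.83 to 7.90 on low fat to 7.58 to 7.80 on corn oil. Mkrn3, a ring finger gene of the cluster tied to Prader-Willi syndrome, fell by 0.09 ± 0.02 (adjusted p = 0.0485) from 7.31 to 7.37 to 7.22 to 7.27, near the floor. Leaving out 1 array, Kcnq1ot1 kept its call in 1 of 8 fits and Mkrn3 in 0 of 8.

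In the other diet comparisons of WAT 0 of 39 passed in limma's test, with 11 of 39 from corn oil to EPA/DHA and 8 of 39 from low fat to EPA/DHA at an unadjusted p under 0.05, as were 17.6% and 9.06% of all genes. In BAT 0 of 38 passed in each, with 3 from low fat to corn oil, 2 from corn oil to EPA/DHA and 0 from low fat to EPA/DHA at an unadjusted p under 0.05, beside 9.1%, 4.99% and 4.77% of all genes. Near Mest, Copg2, whose end overlaps that of Mest, lay at 7.50 to 7.73 on low fat and 7.43 to 7.53 on corn oil, with a difference of -0.09 ± 0.05 (adjusted p = 0.455), and Klf14 lay between 7.01 and 7.16 on all arrays. Meg3, the noncoding neighbour of Dlk1, lay between 7.06 and 7.19 on all arrays.

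Between tissues on the low fat diet, 15 of 40 other imprinted genes were higher and 9 lower in WAT, beside 23.3% and 20.4% of all genes. On corn oil 12 were higher and 7 lower, and on EPA/DHA 11 and 6, where 18.3% and 17.6% of all genes were lower. Dcn, the proteoglycan decorin, had the largest difference, at 13.90 in WAT and 11.62 in BAT (2.29 ± 0.13). Gnas, which encodes a G protein subunit that couples receptors to cyclic AMP, was lower in WAT at 10.13 against 11.48 (-1.35 ± 0.11).

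The insulin-like growth factor axis was taken as a list of 20 genes, of which 19 had a named probe and 17 were tested in WAT. From low fat to corn oil 1 rose and 2 fell, among 2.05% and 1.82% of all genes. Igfals, which encodes the acid-labile subunit of the circulating growth factor complex and is made mainly in liver, rose by 0.68 ± 0.13 (adjusted p = 0.0206), from 10.35 to 11.01 on low fat to 11.25 to 11.55 on corn oil. Igfbp6, a binding protein with a preference for Igf2, fell by 0.59 ± 0.12 (adjusted p = 0.0287), from 9.30 to 9.54 to 8.66 to 9.10. The insulin receptor Insr fell by 0.47 ± 0.11 (adjusted p = 0.0450), from 10.28 to 10.72 to 9.78 to 10.13. The part of the liver markers in the WAT level of Igfals was not tested. With 1 array left out, Igfals kept its call in 5 of 8 fits, Igfbp6 in 2 of 8 and Insr in 0 of 8.

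No gene of the axis passed in limma's test in the other diet comparisons of either tissue. At an unadjusted p under 0.05 there were 3 of 17 in WAT from corn oil to EPA/DHA and 6 of 17 from low fat to EPA/DHA, beside 17.6% and 9.06% of all genes. In BAT there were 2 from low fat to corn oil, 0 from corn oil to EPA/DHA and 2 from low fat to EPA/DHA, beside 9.1%, 4.99% and 4.77%. Igf1r, a receptor for Igf2, had a corn oil minus low fat difference of -0.24 ± 0.06 (adjusted p = 0.0570), and Igf2r, the receptor that clears Igf2, one of -0.06 ± 0.06 (adjusted p = 0.752). Between tissues on the low fat diet, 10 of 18 were higher and 2 lower in WAT, beside 23.3% and 20.4% of all genes. Those higher included Igfbp4 (3.06 ± 0.19) and Igf1 (2.60 ± 0.14).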

How the data were processed

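The log2 values deposited by the authors had been quantile-normalised with lumi 2.18.0, per the submitters' processing notes. Whether the scale is a plain or a variance-stabilised log2 is not given in the sources used here, and detection calls, slides and background correction were not used here. Sorted values of the arrays differed by at most 0.00694. Of 45281 probes, 34885 carried 1 gene symbol, 18 several and 10378 none, and 34818 of the named probes were matched to RefSeq.

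Diets were compared within a tissue (12 arrays), and tissues and interactions over all 24 arrays, with limma 3.58.1 (R 4.3.3), two-sided, with Benjamini-Hochberg adjustment over the probes kept. A probe was kept when its mean over the arrays of a tissue was above the 40th percentile (27168 in each tissue, 29493 in either). Genes stand as their brightest probe. Scripts were tested on simulated data. Alternatives were no filter, the 60th percentile, other normalisations, a trended robust prior, array weights, the mean of a gene's probes, a replicate block, arrays left out and, within a tissue, a fit over all 24 arrays.

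The members and lists were chosen with earlier results of these data known. Named are all members, all fat mass genes, up to 5 passing genes with the largest differences per list and comparison, and the 5 genes most like Mest or Nnat. Copg2, Klf14, Meg3, Igf1r and Igf2r were named as neighbours or receptors after their values were seen.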

Additional observations from a re-analysis of the deposited data

Results flagged for a closer look

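Groups of 4 arrays were looked at by Dixon's test, which sets the gap between the outermost array and its nearest neighbour against the range of the group, at its 95% critical value, a level that chance alone passes in about 1 group in 20. Of 69 groups of the members, 1 held such an array. It was Mest at ILMN_2642417 in BAT on EPA/DHA, where replicate 4 had 7.22 and the other 3 had 7.18, all near the floor.

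The change from low fat to corn oil differed between WAT and BAT for Nnat, by -1.52, -1.59 and -0.76 at its 3 probes above the floor, and for its neighbour Blcap by -0.85 in log2 units (limma, adjusted p = 0.0141, 0.00191, 0.0417 and 0.0322). The change from corn oil to EPA/DHA differed between the tissues for Sfrp5 by -1.07 (limma, adjusted p = 0.0105), a gene that lay between 7.09 and 7.28 in BAT. Nnat in BAT on low fat stood little above the floor, which limits how far a fall can be read there.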

How the results depend on the processing

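Of 1043 single-probe values under the alternatives, 899 kept their direction and their side of the threshold, 132 lost a call, 8 gained 1 and 4 turned their sign. Of 255 counts of members that passed, 9 changed, 4 of them with 1 array left out and 5 under other alternatives. With the fit over all 24 arrays, 2 genes passed from low fat to corn oil in WAT (Mest and Nnat) and 1 from corn oil to EPA/DHA (Mest). With the mean of a gene's kept probes, 1 passed from corn oil to EPA/DHA (Mest) and 1 from low fat to EPA/DHA (Nnat). With 1 array left out, 3 to 4 genes were higher in WAT on corn oil and on EPA/DHA, and the other counts did not change. The 4 turned signs were in differences that had not passed. From corn oil to EPA/DHA, Nnat at ILMN_1241164 ran from -0.12 (without EPA/DHA replicate 3) to 0.18. From low fat to EPA/DHA, Mest ran from -0.72 to 0.031 at ILMN_2846904 (without EPA/DHA replicate 1), and from -0.39 to 0.050 at ILMN_2642418 (without EPA/DHA replicate 1, and 0.024 without low fat replicate 2). The cause was not tested.

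The labels do not say whether same-numbered samples are paired, and a low correlation of their deviations cannot exclude it. These correlations ran from -0.356 to 0.544 in all, and from -0.190 to 0.071 between WAT and BAT of a diet. Between diets of a tissue they were 0.444 to 0.544 for WAT replicate 1 and 0.356 to 0.433 for BAT replicate 4. With the replicate number as a block, 48 of 60 results kept their direction and their side of the threshold and 12 lost a call. The 48 include results that had no call in the main fit. Under this block, the count of members in the interaction from low fat to corn oil went from 1 to 0 (Nnat, limma, adjusted p = 0.0516). Of the Mest calls, the rise had an adjusted p of 0.0590 and the falls of 0.0624 and 0.0506 there. BAT levels of Mest near the floor limit what can be read there.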
